A study of Homo sapiens with 12 samples.

Results

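The genes described here encode the machinery that delivers new proteins to the endoplasmic reticulum, moves them across or into its membrane, and adds N-linked glycans to them. The 39 members were chosen by symbol for their place in the pathway. The rule itself used no measured value, but the list was drawn up with earlier results of these data known. All 39 are listed among the 23284 symbols of the first experiment and among the 12421 symbols of the knockout experiment. They fall into 7 classes, which are the signal recognition particle (SRP, 6 genes), its receptor (2), the Sec61 translocon with its accessory factors (8), the translocon-associated protein complex TRAP (4), the signal peptidase complex (5), the oligosaccharyltransferase (OST, 10) and the tail-anchor insertion pathway (4).

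SRP binds a signal sequence as it leaves the ribosome and docks at the SRP receptor, after which the chain is threaded through the Sec61 channel. TRAP assists the passage of some chains, signal peptidase cuts off the signal sequence, and OST transfers a preassembled glycan from dolichol to asparagine. Proteins with a membrane anchor at the far end take a separate route through GET3 (listed as ASNA1) and its membrane receptor. Both routes are used for proteins of the secretory pathway in all nucleated cells.

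The study transfected HEK293, a human embryonic kidney cell line, for 24 h with 5 ug of a plasmid for STING or of empty vector, and RNA was taken from polysome fractions after a cycloheximide block. STING is an adaptor protein of the endoplasmic reticulum that is activated downstream of cytosolic DNA sensing, and its gene is listed as TMEM173. The first experiment held 2 STING and 2 vector libraries of unmodified cells. The knockout experiment held 2 libraries each of PERK knockout cells with STING, PERK knockout cells with vector, wild-type cells with STING and wild-type cells with vector. PERK (EIF2AK3) is a kinase of the endoplasmic reticulum membrane that phosphorylates eIF2alpha during stress. STING was expressed from a transfected plasmid, all groups were transfected, and whether the knockout cells are 1 clone or a pool is not given in the sources used here. A level is FPKM (fragments per length of transcript, relative to all mapped fragments of a library) in the polysome fraction, so the amount of an RNA and its loading with ribosomes cannot be told apart, nor can fewer cells with an RNA and less RNA per cell.

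TMEM173 stood at 65157 and 69253 FPKM in the STING libraries of the first experiment, against 14.9 and 13.8 in its vector libraries. The second experiment listed 10512 and 7338 in knockout cells with STING, 23.5 and 43.8 in knockout cells with vector, 41812 and 40660 in wild-type cells with STING, and 23.1 and 36.7 in wild-type cells with vector. Transfected wild-type cells held 4.62 times the mean STING level of transfected knockout cells, so the effect of the genotype on the response cannot be told apart from that of the STING level. EIF2AK3 was at or near the lowest value of both tables, from 0.291 to 0.465 FPKM in the first experiment and at the floor of 1 in all libraries of the knockout experiment but knockout STING library 2 (1.15), so the data do not check the knockout label. Of 7 markers listed for the line, VIM, KRT18 and KRT8 were present in each library, whereas PAX2 was at most 0.154 FPKM in the first experiment, and later stood at the floor of 1 in all libraries but knockout vector library 1 (1.47). These markers summed to 153 and 153 FPKM in STING libraries, against 129 and 113 in vector libraries, in the first experiment. They summed to 349 and 494 in knockout STING, 294 and 390 in knockout vector, 164 and 173 in wild-type STING and 167 and 230 in wild-type vector libraries. At the floor were 2 of the 7 in each wild-type library and 1 in each knockout library. With vector, 1 of the 7 passed as higher in knockout than in wild-type cells (limma adjusted p = 0.0444), against 0.0326% of all genes. With STING in the first experiment 1 passed as higher (limma adjusted p = 0.0157), against 2.51% of all genes. The 8 blood cell markers summed to 4.04 and 5.31 FPKM with STING, against 10.3 and 7.85 with vector, in the first experiment, with PTPRC, CD3E and HBB at 0 in each library. The 7 fibroblast markers summed to at most 0.276 FPKM there, with DCN at 0, and the 6 hepatocyte markers to 1.70 and 1.41 with STING, against 4.72 and 2.43 with vector. In the knockout experiment the 3 listed blood cell markers summed to 14.9 and 5.50 in knockout STING, 16.7 and 6.15 in knockout vector, 11.1 and 8.04 in wild-type STING and 11.5 and 8.21 in wild-type vector libraries. The 2 listed hepatocyte markers, 1 of them at the floor, summed to 9.79 and 4.48 in knockout STING, 8.79 and 5.73 in knockout vector, 3.00 and 3.14 in wild-type STING and 3.504 and 3.11 in wild-type vector libraries, and the 1 listed fibroblast marker, COL1A1, was at most 1.75. The part of these differences in the results was not tested.

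The TRAP genes are the class in which every member changed in the first experiment, so their promoter windows are shown. Each window runs from 250 bases before to 50 bases after an annotated start, on the strand of the gene, in RefSeq on GRCh38.p14; it is read by gene symbol and not by the coordinates of the deposited tables, which are on hg19. Capitals mark a CCAAT box (CCAAT), a GC box (GGGCGG), an ETS motif (CCGGAA) or an unfolded protein response element (UPRE, TGACGTGG), on either strand. In SSR2 a CCAAT box and a GC box overlap. The SSR1 window is chr6:7313150-7313449 (minus strand), the SSR2 window chr1:156020902-156021201 (minus), the SSR3 window chr3:156554076-156554375 (minus, the last of 3 listed starts) and the SSR4 window chrX:153794418-153794717 (plus, the last of 2 listed starts). For SSR3 and SSR4 the start whose window holds a UPRE was taken.
SSR1: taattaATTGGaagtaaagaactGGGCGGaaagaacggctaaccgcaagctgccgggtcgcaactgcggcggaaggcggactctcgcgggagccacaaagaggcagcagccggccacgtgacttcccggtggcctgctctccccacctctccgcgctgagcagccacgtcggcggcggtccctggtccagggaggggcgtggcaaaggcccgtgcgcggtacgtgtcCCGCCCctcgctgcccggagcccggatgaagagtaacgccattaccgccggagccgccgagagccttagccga
SSR2: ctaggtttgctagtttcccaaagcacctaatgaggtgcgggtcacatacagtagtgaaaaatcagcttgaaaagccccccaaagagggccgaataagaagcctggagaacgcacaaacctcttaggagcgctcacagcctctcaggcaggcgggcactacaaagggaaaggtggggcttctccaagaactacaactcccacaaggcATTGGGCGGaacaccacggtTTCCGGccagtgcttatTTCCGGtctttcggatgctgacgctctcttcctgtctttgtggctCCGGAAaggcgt
SSR3: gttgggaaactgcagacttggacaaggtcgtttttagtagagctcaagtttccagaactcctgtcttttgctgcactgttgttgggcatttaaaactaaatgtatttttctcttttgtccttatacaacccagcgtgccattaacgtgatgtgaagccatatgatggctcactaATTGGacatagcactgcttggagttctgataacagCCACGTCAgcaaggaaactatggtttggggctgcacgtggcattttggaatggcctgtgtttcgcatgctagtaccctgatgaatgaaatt
SSR4: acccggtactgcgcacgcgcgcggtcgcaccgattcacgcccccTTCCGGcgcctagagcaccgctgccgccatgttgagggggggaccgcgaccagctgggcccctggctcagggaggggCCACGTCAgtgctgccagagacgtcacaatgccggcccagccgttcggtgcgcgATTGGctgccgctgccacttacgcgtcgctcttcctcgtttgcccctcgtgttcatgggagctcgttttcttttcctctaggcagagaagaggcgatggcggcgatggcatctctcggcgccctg

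Symbols of 32 members matched the RefSeq promoter table, with 43 starts. A UPRE, to which transcription factors of the unfolded protein response bind, was found at 4 of the 43 member starts (9.3%), 1 each of SEC62, SRP19, SSR3 and SSR4, against 0.729% of all 35116 starts of the table. The CCAAT box was at 46.5% of member starts and 34.6% of all starts, the GC box at 72.1% and 45.0%, and the ETS motif at 39.5% and 17.2%. No member start held a CRE (TGACGTCA, 1.85% of all starts), a CARE (TTGCATCA, 0.866%), or the elements named ERSE (0.0769%) and ERSE-II (0.0541%). Starts of 1 gene overlap, and a match of letters is not a bound site.

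The first comparison asks how the polysome levels of the machinery respond to STING in unmodified cells. Subunits of TRAP and signal peptidase, the small OST subunits DAD1 and KRTCAP2 and the tail-anchor receptor subunit WRB fell. No member passed as higher in the main fit, which had no term for the replicate number. Of 38 members tested, 14 were lower (36.8%) and 0 higher at an adjusted p of 0.05 in limma on log2(FPKM + 1), against 9.29% lower and 2.51% higher (11.8% in either direction) of all 9464 genes. TRAM2 was left out, with a mean under 1 FPKM. At an unadjusted p of 0.05, 20 members were lower and 4 higher (18.9% and 8.82% of all genes). Both STING libraries were below both vector libraries for 27 members (71.1%, against 32.8% of all genes) and above them for 5 (13.2%, against 24.2%). The median log2 change was -0.42 over the members and -0.05 over all tested genes. These medians became -0.35 and 0.01 with median-of-ratios scaling, and -0.13 and 0.02 with quantile normalization. Below 0 were 28 of 38 log2 changes (73.7%, against 54% of all genes), and 23 with quantile normalization (60.5%, against 48.6%). Summed over the 39 members, the level was 8236 and 8059.9 FPKM with STING, against 14664 and 13721 FPKM with vector, which is 0.381% and 0.382% of all FPKM with STING, against 0.523% and 0.547% with vector, and SSR4 alone made up much of these sums. The calls rested on both STING libraries: without STING library 1, or without STING library 2, no member passed, while 10 passed without vector library 1 and 8 without vector library 2. With limma's intensity trend and robust estimation switched off, 0 members and 17 of all 9464 genes passed. The absence of higher members also depended on settings, since SRP54 passed as higher without vector library 1 and CAMLG with quantile normalization.

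**Figure D1:**
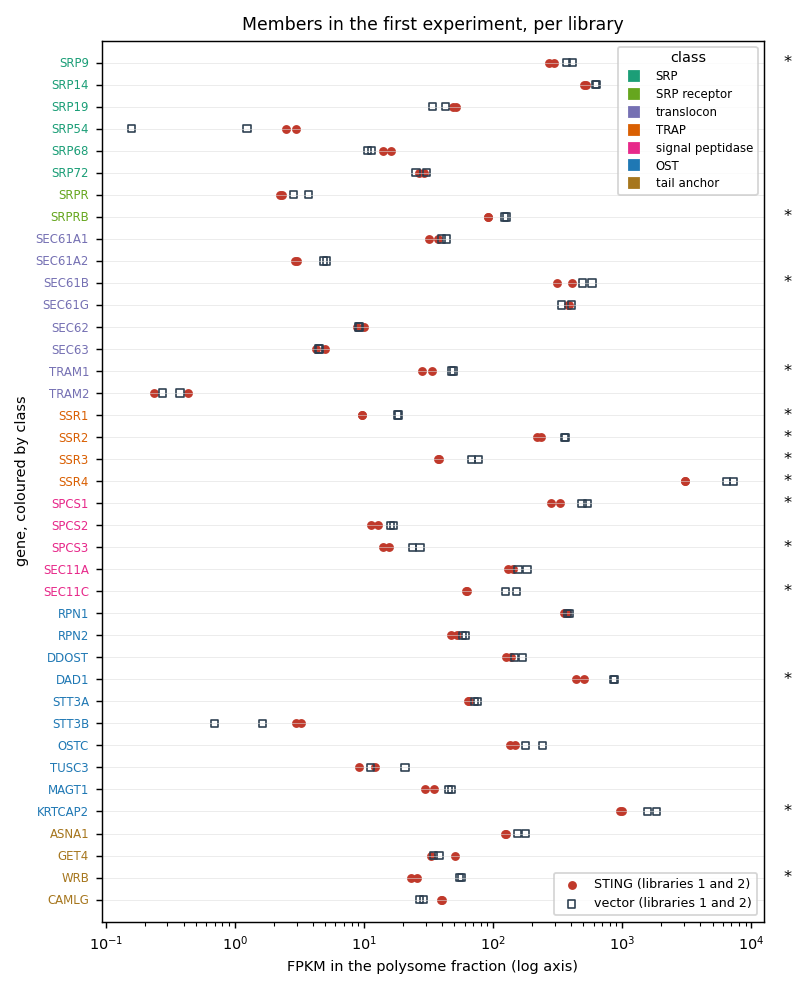
Level of each of the 39 members in the 4 libraries of the first experiment, in FPKM on a log axis; filled points are STING libraries, open squares vector libraries, gene names are coloured by class and an asterisk marks a limma adjusted p under 0.05. The STING points of all 4 TRAP genes lie left of their vector squares, while those of SRP54, STT3B and CAMLG lie to the right without passing.

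In the SRP class 1 of 6 members fell, and 4 of 6 log2 changes were above 0. SRP9, which with SRP14 forms the Alu-binding end of the particle that slows elongation, stood at 271 and 297 FPKM with STING, against 372 and 412 with vector (log2 change -0.46, SE 0.11, limma adjusted p = 0.0335). Its groups did not overlap, and the same holds for SRP14, at 527 and 507 FPKM with STING, against 618 and 634 with vector (-0.27, adjusted p = 0.111 in limma). SRP54, the GTPase that holds the signal sequence, had 2.99 and 2.49 FPKM with STING, against 1.24 and 0.159 with vector. Its log2 change of 1.21 (SE 0.35) was the highest of all members and did not pass (limma adjusted p = 0.0644), passing without vector library 1 (log2 change 1.69, adjusted p = 0.0286 in limma). SRP19, which helps the particle's RNA take up SRP54, had 51.1 and 49.2 FPKM with STING, against 42.5 and 33.9 with vector (log2 change 0.39). SRP68 had a log2 change of 0.41 and SRP72, its partner, 0.01, and neither passed. The median of the class was 0.20. With a library left out, SRP9 missed the threshold (adjusted p from 0.0503 to 0.285 in limma), and quantile normalization brought its log2 change to -0.04.

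Of the receptor, SRPRB, the membrane-anchored beta subunit, fell, and SRPR, the alpha subunit that meets SRP, did not pass. SRPRB had 90.4 and 90.5 FPKM with STING, against 122 and 127 with vector, which is 72.8% of the vector mean (log2 change -0.45, SE 0.12, limma adjusted p = 0.04425). The groups of SRPRB did not overlap; with a library left out, its adjusted p in limma ran from 0.0778 to 0.261. SRPR had 2.32 and 2.24 FPKM with STING, against 2.86 and 3.71 with vector (-0.38, adjusted p = 0.364 in limma).

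Of 7 tested translocon members 2 fell, and the median log2 change was -0.26. SEC61A1, the pore-forming alpha subunit, had 31.8 and 37.3 FPKM with STING, against 43.2 and 39.9 with vector (log2 change -0.26, limma adjusted p = 0.335). SEC61G, the gamma subunit, had 378 and 384 FPKM with STING, against 403 and 338 with vector, with overlapping groups. SEC61B, the beta subunit, fell, with 409 and 312 FPKM with STING, against 581 and 495 with vector (-0.59, SE 0.15, limma adjusted p = 0.0476). TRAM1, a membrane protein that meets the chain beside the channel, also fell, with 27.9 and 33.8 FPKM with STING, against 49.3 and 47.8 with vector (-0.64, SE 0.16, adjusted p = 0.0401 in limma). SEC61A2, the less abundant alpha isoform, had 3.02 and 2.89 FPKM with STING, against 5.13 and 4.85 with vector, without overlap, and did not pass (-0.60, adjusted p = 0.130 in limma). SEC62 and SEC63, which serve chains that arrive after their synthesis, each had a log2 change of 0.04. TRAM2 was listed at 0.431 and 0.236 FPKM with STING, against 0.376 and 0.276 with vector. SEC61B and TRAM1 missed the threshold with any 1 library left out, with adjusted p of at most 0.324 and 0.274 in limma.

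All 4 TRAP subunits fell, with a median log2 change of -0.895. SSR4, the delta subunit, was the most abundant member per length, with 3033 and 3066 FPKM with STING, against 7259.9 and 6419 with vector, or 44.6% of the vector mean (log2 change -1.16, SE 0.10, limma adjusted p = 0.00116). SSR3, the gamma subunit, had 37.5 and 38.1 FPKM with STING, against 68.3 and 76.5 with vector (-0.92, SE 0.14, adjusted p = 0.00694 in limma). SSR1, the alpha subunit, had 9.63 and 9.57 FPKM with STING, against 18.2 and 18.6 with vector (-0.87, SE 0.18, adjusted p = 0.0202 in limma). SSR2, the beta subunit, had 219 and 237 FPKM with STING, against 355 and 363 with vector (-0.65, SE 0.10, adjusted p = 0.008025 in limma). In each of these genes both STING libraries lay below both vector libraries. Of the windows printed above, those of SSR3 and SSR4 hold the UPRE letters, and those of SSR1 and SSR2 do not. SRP19 and SEC62, which also have a UPRE, did not fall (log2 changes 0.39 and 0.04). A link between the motif and the change was not tested. With a library left out, the adjusted p in limma reached at most 0.126 for SSR4, 0.164 for SSR3 and 0.178 for SSR2, and SSR1 missed the threshold each time (0.0559 to 0.189).

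Signal peptidase had 3 of 5 subunits lower, and all 5 had both STING libraries below both vector libraries. SEC11C, 1 of 2 alternative catalytic subunits, had 61.9 and 62.7 FPKM with STING, against 125 and 152 with vector (log2 change -1.14, SE 0.14, limma adjusted p = 0.00335). SEC11A, the other catalytic subunit, had 142 and 131 FPKM with STING, against 156 and 182 with vector, and did not pass (-0.30, adjusted p = 0.168 in limma). Within a library SEC11C over SEC11A was 0.435 and 0.479 with STING, against 0.805 and 0.836 with vector, a ratio chosen after its values were seen. SPCS1, an accessory subunit, had 327 and 281 FPKM with STING, against 488 and 538 with vector (-0.76, SE 0.12, adjusted p = 0.00714 in limma). SPCS3, a subunit needed for catalysis, had 15.5 and 14.0 FPKM with STING, against 23.8 and 27.1 with vector (-0.74, SE 0.18, adjusted p = 0.0330 in limma). SPCS2, another accessory subunit, had a log2 change of -0.41 (adjusted p = 0.191 in limma). With a library left out, the adjusted p in limma reached at most 0.137 for SEC11C and 0.159 for SPCS1, and SPCS3 missed the threshold each time (0.0567 to 0.233).

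In OST, 2 of 10 subunits fell and 9 of 10 log2 changes were below 0. DAD1, a small subunit named as a defender against cell death, had 508 and 439.6 FPKM with STING, against 866 and 851 with vector (log2 change -0.86, SE 0.11, limma adjusted p = 0.00372). KRTCAP2, a subunit of the form of OST that works at the translocon, had 996 and 963 FPKM with STING, against 1839 and 1578 with vector (-0.80, SE 0.11, adjusted p = 0.00487 in limma). Of the large subunits, RPN1, RPN2, DDOST and STT3A moved less, whereas STT3B, at low FPKM, did not. RPN1 had 373 and 353 FPKM with STING, against 376 and 391 with vector (-0.08, adjusted p = 0.668 in limma), and RPN2, DDOST and the catalytic subunit STT3A had log2 changes of -0.26, -0.26 and -0.19. STT3B, the catalytic subunit of the form that glycosylates skipped sites, had 2.98 and 3.26 FPKM with STING, against 1.63 and 0.693 with vector, without overlap, and did not pass (0.96, SE 0.29, adjusted p = 0.0714 in limma). OSTC, MAGT1 and TUSC3 had log2 changes of -0.54, -0.52 and -0.50, and the groups of TUSC3 overlapped. With a library left out, the adjusted p in limma reached at most 0.135 for DAD1 and 0.164 for KRTCAP2.

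Of the 4 tail-anchor genes 1 fell, WRB, which with CAMLG forms the membrane receptor of ASNA1. WRB had 25.9 and 23.2 FPKM with STING, against 54.8 and 56.9 with vector (log2 change -1.16, SE 0.15, limma adjusted p = 0.00449). Its partner CAMLG had 40.0 and 39.5 FPKM with STING, against 29.05 and 26.77 with vector, without overlap, and did not pass (0.50, SE 0.15, adjusted p = 0.0781 in limma); with quantile normalization it passed (0.67, adjusted p = 0.0415 in limma). Within a library the ratio of WRB to CAMLG was 0.647 and 0.588 with STING, against 1.89 and 2.13 with vector. This ratio was also chosen after its values were seen. ASNA1, the ATPase that carries the tail-anchored protein, had 125 and 123 FPKM with STING, against 154 and 179 with vector (-0.42, adjusted p = 0.0644 in limma). GET4, of the complex that loads ASNA1, had overlapping groups (log2 change 0.17). With a library left out, the adjusted p of WRB in limma reached at most 0.128.

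Coding length, which did not enter the choice of members, went with the change in the first experiment. Of 16 tested members with a longest annotated coding sequence of up to 600 bases, 11 fell (68.8%), against 24.3% of 1245 genes of that length. Of 13 members over 600 and up to 1500 bases 3 fell (23.1%), against 10.1% of 3917 genes, and of 8 longer members 0 fell, against 1.61% of 2986 genes. The median log2 changes of the members in these ranges were -0.70, -0.42 and 0.03, against -0.27, -0.09 and 0.11 over all genes. Across 37 members, the log2 coding length and the log2 change had a Pearson r of 0.46 and a Spearman rho of 0.485, against 0.25 and 0.29 across 8148 genes; the genes share libraries, and FPKM itself contains the transcript length. The log2 mean level and the log2 change had an r of -0.505 across 38 members and -0.16 across all 9464 genes. In wild-type cells of the knockout experiment this was not so: coding length and log2 change had an r of -0.09 and a rho of -0.13 across 38 members, and the median log2 changes in the 3 length ranges were -0.43, -0.43 and -0.46. Across 11328 genes of wild-type cells the r was -0.04 and the rho -0.02, with medians of -0.23, -0.28 and -0.27. In knockout cells the r was 0.40 and the rho 0.385 across the members, against 0.165 and 0.174 across all genes. The medians there were -0.285, -0.16 and -0.16, against -0.25, -0.11 and -0.07 over all genes. Level and log2 change had an r of -0.295 across 39 members in knockout and 0.14 in wild-type cells. Across all genes these were -0.26 and -0.225.

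**Figure D2:**
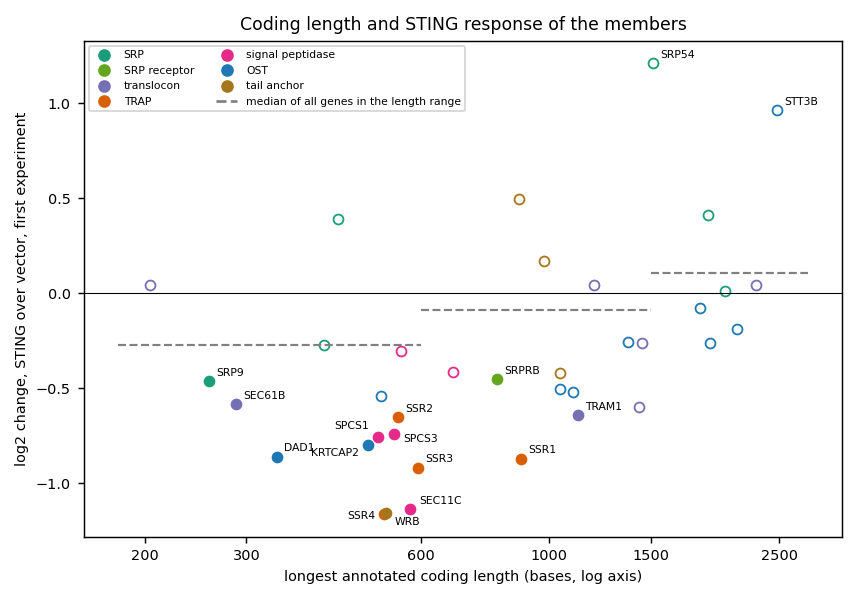
Longest annotated coding length (bases, log axis) of 37 members against the log2 change of STING over vector in the first experiment; filled points have a limma adjusted p under 0.05, colours are classes and dashed lines are medians over all genes of the length range. Filled points lie mostly at up to 600 bases, and none lies beyond 1500 bases.

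The second pair of comparisons asks whether the machinery responds to STING in PERK knockout and in wild-type cells of the knockout experiment. No member passed in either genotype, where 1 of 12254 genes passed (0.00816%), TMEM173 in both. In knockout cells 4 of 39 members were lower at an unadjusted p of 0.05 (10.3%, against 6.64% of all genes) and 0 higher. In wild-type cells 1 was lower (2.56%, against 12.4% of all genes) and 0 higher (0.441% of all genes). That count depended on the libraries in the fit: with only the 4 wild-type libraries 17 members were lower, against 25% of all genes, and without knockout STING library 1 or 2 it was 6 or 5, against 15.2% of all genes each time. The median log2 change was -0.18 over the members and -0.11 over all genes in knockout cells, and -0.43 and -0.27 in wild-type cells. In knockout cells 35 of 39 log2 changes were below 0 (89.7%, against 65.8% of all genes). There were 19 with median-of-ratios scaling (48.7%, against 43.9%) and 19 with quantile normalization (48.7%, against 48.9%). In wild-type cells 38 of 39 were below 0 (97.4%, against 86.5% of all genes), and 25 and 30 were with these scalings (42.7% and 56.2% of all genes). With median-of-ratios scaling the medians were 0.00 for members and 0.04 for all genes in knockout cells, and -0.05 and 0.05 in wild-type cells; with quantile normalization they were 0.04 and 0.00 in knockout cells, and -0.09 and 0.00 in wild-type cells.

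**Figure D3:**
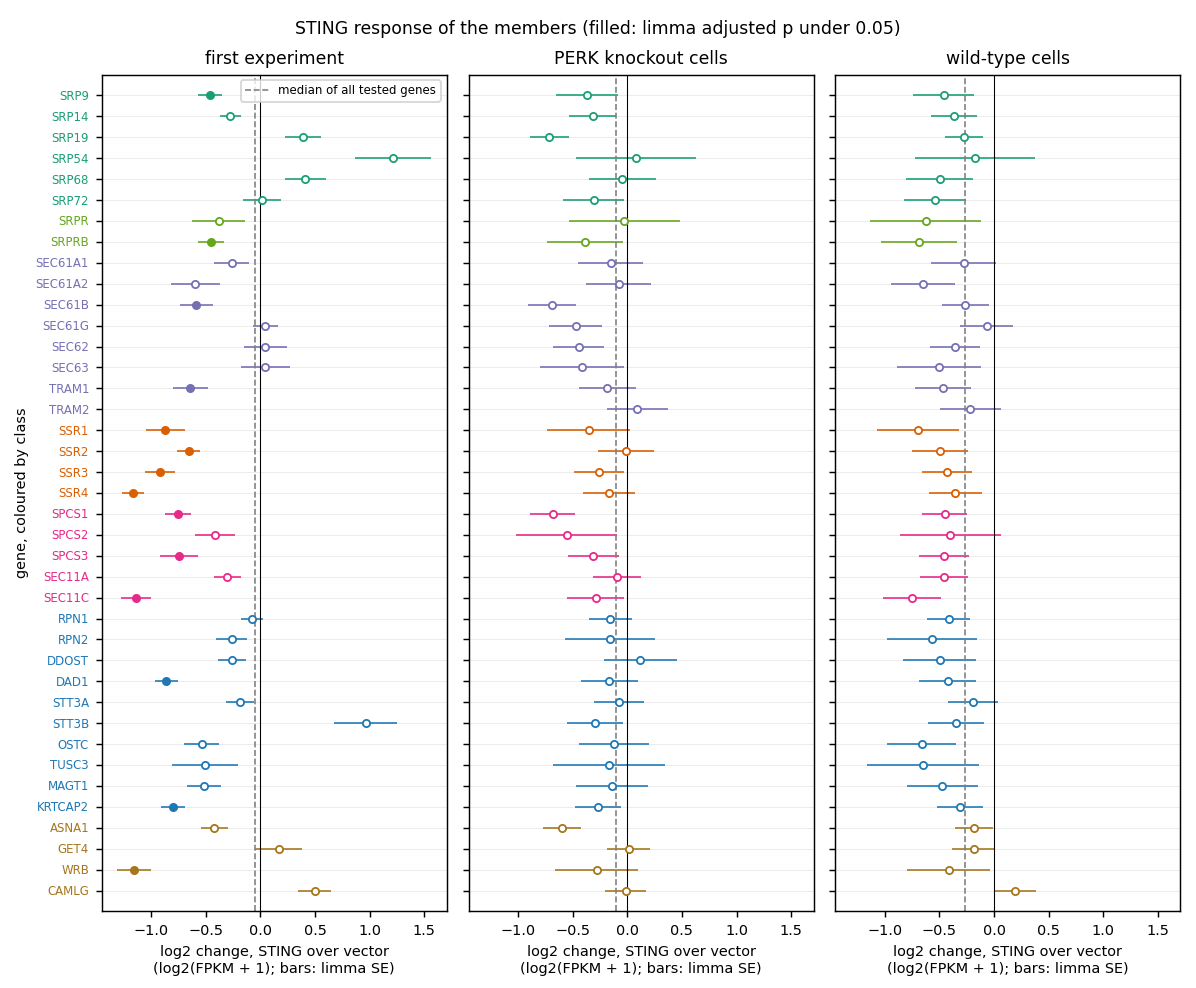
Log2 change of STING over vector on log2(FPKM + 1) for the members in the first experiment, in PERK knockout cells and in wild-type cells; bars are limma standard errors, filled points have an adjusted p under 0.05, the dashed line is the median over all tested genes, and TRAM2 has no point in the first panel. Filled points occur in the first panel, and most points of the other panels lie left of 0 with wider bars.

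In knockout cells both STING libraries lay below both vector libraries for 9 members (23.1%, against 21.9% of all genes) and above them for 0 (5.66% of all genes). The replicates differed in level in both groups, as given below, so an overlap here does not show that a member kept its level. The members with the largest change of their class were SRP19, SRPRB, SEC61B, SSR1, SPCS1, STT3B and ASNA1. SRP19 had 88.1 and 81.8 FPKM with STING, against 127 and 154 with vector (log2 change -0.71, SE 0.18, limma adjusted p = 0.470). SEC61B had 622 and 449 FPKM with STING, against 899.8 and 807 with vector (-0.69). SPCS1 had 269 and 355 FPKM with STING, against 435 and 566 with vector (-0.68). ASNA1 had 63.9 and 64.7 FPKM with STING, against 94.7 and 101 with vector (-0.60), and STT3B had 4.97 and 4.50 FPKM with STING, against 5.76 and 6.33 with vector (-0.30). In these 5 genes the groups did not overlap. SRPRB had 15.1 and 29.2 FPKM with STING, against 21.0 and 36.6 with vector (-0.38). SSR1 had 7.44 and 16.1 FPKM with STING, against 11.1 and 18.3 with vector (-0.35). The groups of SRPRB and SSR1 overlapped, but within each replicate number both genes were lower with STING. The replicates of knockout cells stood apart: replicate 2 was above replicate 1 for 34 of 39 members with STING (median log2 difference 0.48, against 0.115 over all genes) and for 36 of 39 with vector (0.52, against 0.12). Leaving out 1 knockout library sets 1 replicate against the mean of 2, so this offset enters the median log2 change over the members. That median was 0.05 without knockout STING library 1 and 0.09 without knockout vector library 2. It was -0.49 without knockout STING library 2 and -0.48 without knockout vector library 1. These 4 values therefore do not show how stable the response to STING is.

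In wild-type cells both STING libraries lay below both vector libraries for 29 members (74.4%, against 52.3% of all genes) and above them for 1, CAMLG (2.56%, against 3.31%). SEC11C had 86.4 and 101 FPKM with STING, against 153 and 163 with vector, or 59.2% of the vector mean (log2 change -0.75, SE 0.26, unadjusted p = 0.0222 and adjusted p = 0.384 in limma). SSR1 had 10.99 and 12.34 FPKM with STING, against 16.5 and 23.1 with vector (-0.70), and SRPRB had 27.0 and 28.7 FPKM with STING, against 43.1 and 48.1 with vector (-0.69). OSTC, a subunit that links OST to the translocon, had 136 and 148 FPKM with STING, against 213 and 237 with vector (-0.66). SEC61A2 had 7.05 and 5.53 FPKM with STING, against 11.2 and 9.63 with vector (-0.65). SRP72 had 23.7 and 26.4 FPKM with STING, against 30.7 and 44.4 with vector (-0.54). WRB had 38.0 and 36.1 FPKM with STING, against 45.5 and 54.5 with vector (-0.42), and its partner CAMLG had 54.3 and 57.0 FPKM with STING, against 45.7 and 51.4 with vector (0.19). The groups of these 8 genes did not overlap, and none passed.

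The genes that fell in the first experiment did not pass here. SSR4 had 1016 and 1129.6 FPKM in knockout cells with STING, against 1296 and 1117 in knockout cells with vector, and 1479 and 1242 in wild-type cells with STING, against 2161 and 1388 in wild-type cells with vector (log2 changes -0.17 and -0.35). SSR2 had 249 and 376 FPKM in knockout cells with STING, against 254 and 374 with vector, and 189 and 176 FPKM in wild-type cells with STING, against 255 and 259.9 with vector (-0.01 and -0.50). SSR3 had 50.1 and 69.6 FPKM in knockout cells with STING, against 60.6 and 82.9 with vector, and 54.6 and 59.6 FPKM in wild-type cells with STING, against 73.9 and 80.7 with vector (-0.26 and -0.43). The groups of SSR4 overlapped in both genotypes, and those of SSR2 and SSR3 in knockout cells. Within each replicate number SSR3 in knockout cells and SSR4 in wild-type cells were lower with STING than with vector. In knockout cells SSR4 and SSR2 were lower with STING in replicate 1 and slightly higher in replicate 2. DAD1 had log2 changes of -0.16 in knockout and -0.43 in wild-type cells, KRTCAP2 -0.27 and -0.31, SRP9 -0.37 and -0.46, TRAM1 -0.18 and -0.47, and SPCS3 -0.31 and -0.46. SEC61B and SPCS1 had -0.26 and -0.45 in wild-type cells. Across 38 members the log2 changes of the first experiment and of wild-type cells had a Pearson r of 0.47 and a Spearman rho of 0.37 (0.31 and 0.20 across 8808 genes), and those of the first experiment and of knockout cells 0.15 and 0.16 (0.16 and 0.09).

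The difference between knockout and wild-type cells in the STING response was tested as an interaction. No member passed, as no gene did (0% of 12254), and at an unadjusted p of 0.05 the counts were 0 of 39 members, against 3.04% of all genes higher and 0.832% lower. The median difference in log2 change, knockout minus wild type, was 0.20 over the members and 0.13 over all genes. The difference was below 0 for 8 of 39 members (20.5%, against 33.4% of all genes), and for 19 with median-of-ratios scaling (48.7%, against 52.8%). The highest value was that of DDOST, an OST subunit (0.62, SE 0.47), the lowest that of SRP19 (-0.44, SE 0.25). The smallest adjusted p over the members was 0.966 in limma, and the median SE of 0.37 exceeded the median difference. With median-of-ratios scaling the median was 0.01 over the members and -0.02 over all genes. Without knockout STING library 2 the median over the members was -0.05, and without knockout vector library 2 it was 0.49. The offset between the replicates of knockout cells enters both values.

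Knockout and wild-type cells with vector alone were also compared. No member passed, against 6 of 12254 genes (0.049%, with 0.0326% higher and 0.0163% lower). The median log2 difference, knockout over wild type, was -0.31 over the members and -0.09 over all genes. Over the members it was 0.05 without knockout vector library 1 and -0.55 without knockout vector library 2. The offset between these 2 libraries enters both values. Without overlap, 11 members lay below wild type (28.2%, against 25.8% of all genes) and 2 above (5.13%, against 12.5%). SEC62 had 9.31 and 10.7 FPKM in knockout cells, against 14.9 and 20.4 in wild-type cells (-0.75, SE 0.23, limma adjusted p = 0.283). SRP68 had 14.7 and 23.4 FPKM in knockout cells, against 25.3 and 40.2 in wild-type cells (-0.75), and CAMLG 63.4 and 75.6 FPKM in knockout cells, against 45.7 and 51.4 in wild-type cells (0.50). These 3 did not overlap; SRP14, ASNA1, SRP68 and SEC62 lower and CAMLG higher were the 5 members at an unadjusted p of 0.05 (10.3% lower and 2.56% higher, against 7.99% and 4.38% of all genes).

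Ratios of partner genes within a library, chosen after their values were seen and not tested, set the experiments side by side. WRB over CAMLG was 0.648 and 0.861 in knockout cells with STING, against 0.654 and 1.24 with vector, and 0.700 and 0.634 in wild-type cells with STING, against 0.995 and 1.06 with vector. SEC11C over SEC11A was 0.763 and 0.931 in knockout cells with STING, against 0.922 and 1.015 with vector, and 0.576 and 0.792 in wild-type cells with STING, against 0.846 and 0.818 with vector. SSR4 over RPN1, an OST subunit with a log2 change near 0 in the first experiment, was 8.13 and 8.69 with STING, against 19.3 and 16.4 with vector, in that experiment. The same ratio was 7.395 and 6.47 in knockout cells with STING, against 8.46 and 5.75 with vector, and 9.28 and 6.95 in wild-type cells with STING, against 9.95 and 5.94 with vector. WRB over CAMLG and SEC11C over SEC11A were thus lower in both STING libraries than in both vector libraries in the first experiment and in wild-type cells. In knockout cells the groups of these 2 ratios overlapped, but within each replicate number the STING library was the lower, so the overlap does not show that the genotypes differ. SSR4 over RPN1 separated in the first experiment and overlapped in both genotypes of the knockout experiment. DAD1 over RPN1 and SEC61A2 over SEC61A1 did the same. STT3B over STT3A was higher with STING in the first experiment and overlapped in both genotypes. Within each replicate number of both genotypes this ratio was lower with STING, opposite to the first experiment. TUSC3 over MAGT1 overlapped throughout. Separation in the first experiment follows from picking genes with their changes seen, and is no further support. The share of separated ratios over other gene pairs was not computed.

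**Figure D4:**
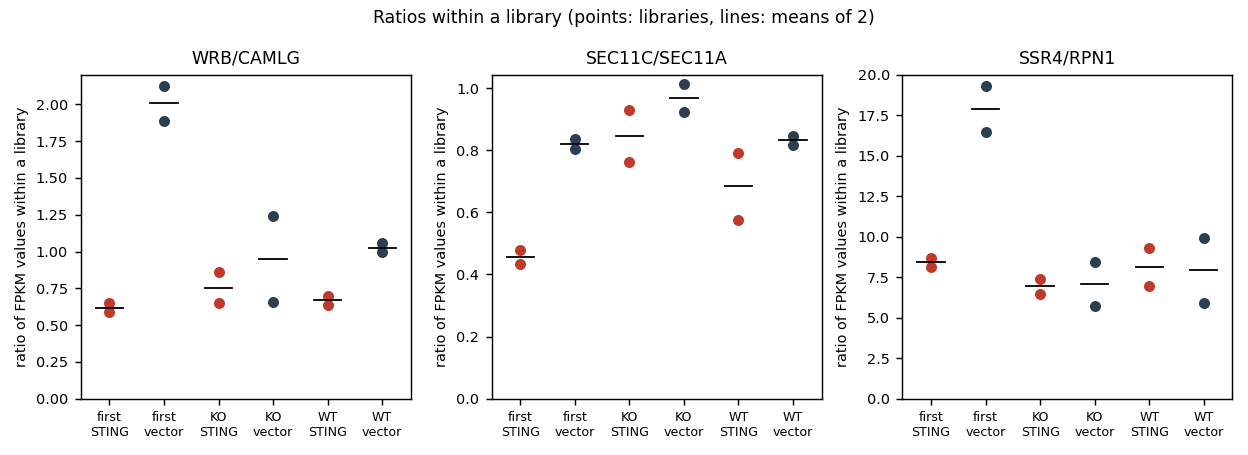
Ratios of FPKM values within a library, WRB over CAMLG, SEC11C over SEC11A and SSR4 over RPN1, for STING and vector libraries of the first experiment, of PERK knockout (KO) and of wild-type (WT) cells; points are libraries and lines means of 2. STING points lie below vector points in the first experiment in all 3 panels, and in knockout cells the ranges of the groups overlap in all 3 panels.

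Genes around the machinery were read from lists of the same pathway. For the assembly of the dolichol-linked glycan, 5 of 22 tested genes fell and 0 rose in the first experiment (median log2 change -0.43). DPM2, a subunit of dolichol-phosphate mannose synthase, had 92.6 and 94.1 FPKM with STING, against 214 and 223 with vector (-1.22, SE 0.11, limma adjusted p = 0.00134). MPDU1, which is needed for the use of mannose-phosphate dolichol, had 77.9 and 74.7 FPKM with STING, against 129.8 and 155 with vector (-0.89). SRD5A3, which makes dolichol from polyprenol, fell by 0.96, ALG14, a subunit of an early glycosyltransferase, by 0.90, and ALG12, a late mannosyltransferase, by 0.72 on the log2 scale. Among genes that trim glycans or bind them, 2 of 9 fell, the mannosidase MAN1B1 and the cargo receptor subunit MCFD2 (-0.85 and -0.91), and the median was 0.22, with PRKCSH, a glucosidase subunit, highest at 0.51 without passing.

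Of 13 tested partners of the translocon and OST 5 fell: TMCO1 (-1.03), the BiP exchange factor SIL1 (-0.85), the small OST subunit OST4 (-0.73), C11orf10, also an OST subunit known as TMEM258 (-0.70), and TMEM147 (-0.66). C11orf10 had 1966 and 1674 FPKM with STING, against 3450.2 and 2506 with vector. NACA, a subunit of a complex that binds chains at the ribosome, had the highest log2 change of this list, 0.37, and did not pass. Of the 10 genes of the membrane insertase EMC 3 fell, namely C19orf63, FAM158A and MMGT1 (-0.67, -0.63 and -0.58), while TTC35 was highest (0.48) without passing. Of 6 other genes that handle tail-anchored proteins 0 passed, from -0.10 for UBL4A to 0.69 for BAG6. As background the share lower was 9.29% of all genes, as above.

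In the knockout experiment no gene of these lists passed. In knockout cells the extremes were ALG14 (-0.81) and ALG10B (0.36) for glycan assembly, CANX (-0.23) and MOGS (0.38) for trimming and lectins, NACA (-0.51), TMEM93 of EMC (-0.54), and UBL4A (-0.36) and UBQLN2 (0.17) for tail-anchored proteins. In wild-type cells they were SRD5A3 (-1.02) for glycan assembly, CANX (-0.76) and MOGS (0.08), HSPA5, the chaperone BiP (-0.82), C19orf63 and TMEM93 of EMC (-0.81 and 0.15), and SGTA and BAG6 (-0.62 and 0.07). CANX, the lectin calnexin, had 26.6 and 28.0 FPKM in wild-type cells with STING, against 41.1 and 53.8 with vector, without overlap and with an adjusted p of 0.396 in limma.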

How the data were processed

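Polysome-fraction RNA of 12 HEK293 libraries was measured by Smart-seq2. Levels in both tables are FPKM deposited by the authors, made on hg19, with TopHat2 2.1.1 and Cufflinks 2.2.1, as the submitters' processing notes say; the table of the knockout experiment does not name its unit and has a lowest value of 1, so it was read as FPKM with a floor of 1. Neither gives counts, so the depth is unknown and no counting interval is given. Smart-seq2 keeps no strand, so overlapping genes on opposite strands, and close paralogs such as SEC11A and SEC11C or SEC61A1 and SEC61A2, can share fragments.

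Groups came from the sample titles, with 2 libraries each; no label calls them separate cultures, so each p-value reflects how far these libraries differ, possibly for technical reasons alone. Each experiment had its own limma fit (3.58.1, R 4.3.3) of log2(FPKM + 1). Non-constant genes averaging at least 1 entered it, 9464 in the first and 12254 in the knockout experiment, whose 8 libraries gave a joint spread. Tests were two-sided (eBayes with intensity trend and robust estimation), with Benjamini-Hochberg adjustment over all tested genes at 0.05. The scale understates the change of low genes. The procedure was tested on simulated data.

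The members, classes, marker and pathway lists were chosen with earlier results of these data known, and all members may be named; per-library values are given for members past the threshold and for the member of each class with the largest change in each STING comparison. From the pathway lists, genes past the threshold and the highest and lowest were named; other member values given in addition were picked after their values were seen. Coding length (longest coding sequence in GENCODE 29 basic) replaced protein length; 38 members matched, all but SRPR.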

Additional observations from a re-analysis of the deposited data

How the results depend on the processing

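Depth is unknown and 2 libraries a group limit all tests. In the first experiment the 14 members called became 9 with no filter on low values, 7 with quantile normalization (6 lower, 1 higher), 0 without the intensity trend and robust estimation, and 0 to 10 with a library left out (8 without vector library 2); median-of-ratios scaling left 10, and a mean of at least 5 gave 16. The 1117 genes called became 580, 777, 17, and 38 to 818 under the same settings, with 78.7% of calls lower, against 68.8% with median-of-ratios scaling, 55.5% with quantile normalization, 41.2% without trend and robust estimation, 21.4% without STING library 1 and 21.1% without STING library 2. No called member changed sign under any of 12 alternatives. No member passed in any alternative fit of the knockout experiment. Its genes called were 1 to 3 in knockout and 1 to 2 in wild-type cells with a library left out. For knockout against wild-type cells with vector, 6 genes called became 17 at a pseudocount of 0.1, 32 at a mean of at least 5, 53 and 24 with median-of-ratios and quantile scaling, 0 without trend and robust estimation, 0 with only the groups compared, and 0 to 3 with a library left out. The cause of these shifts was not tested. Scaling by spike-ins was not run, since neither table lists spike-in rows.

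Titles number the replicates alike in each group, and sample descriptions of the first experiment carry the letters A and B along with the numbers, but no label says that either marks a shared culture or day. With the replicate block, 19 members passed in the first experiment (17 lower, and SRP54 and STT3B higher) of 1587 genes; 2 genes passed in knockout cells and 105 for knockout against wild type with vector. At an unadjusted p of 0.05 the block gave 17 members lower in wild-type cells (23.6% of all genes) and 5 in knockout cells (11.4%). Differences between replicates correlated across genes at 0.07 in the first experiment and at 0.04 to 0.53 between groups of the knockout experiment.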
